A study of Saccharomyces cerevisiae with 32 samples.

Results

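The general stress response of budding yeast was followed through 35 genes: MSN2 and MSN4, which encode its paired activators, and 33 genes known as stress genes of the Msn2/4 type, among them HSP12, CTT1, DDR2, PNC1, YGP1, SPI1, SOD2, GAD1 and UBI4. They were taken by their systematic names from the deposited expression table and make up 35 of its 6717 gene IDs. All 35 passed the filter on low values and were among the 6203 genes tested. The large chaperone families were left out of the set, although SSE2, an Hsp110-type chaperone, and HSP12, a small heat shock protein, are in it.

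Messenger RNA was measured by poly-A RNA sequencing in a tps1 strain (DBY12383) and a wild-type strain (WT, DBY12000). TPS1 encodes trehalose-6-phosphate synthase, and mutants that lack it are known to use galactose and to grow poorly when glucose or fructose is given. Log phase cultures of both strains in yeast nitrogen base and 2% galactose received glucose or fructose to 2% and were sampled at 0, 3, 5, 10, 15, 30, 60 and 120 min. There was 1 library for each strain, sugar and time, 32 in all, so that each strain has a pair of galactose libraries at 0 min, 4 early libraries per sugar (3 to 15 min) and 3 late libraries per sugar (30 to 120 min). Both strains saw the same sugar change, and the tps1 strain differs from WT by its TPS1 locus as far as the labels say. Serial samples of a course come from 1 culture as far as the labels tell. Where early or late libraries are compared, p-values therefore describe mainly the spread between times and not between cultures. In galactose they describe the spread within the pairs of 0 min libraries. At single times they describe the spread between the glucose and fructose libraries. It is not stated whether the 0 min libraries of a strain came from separate cultures. For tps1, the 0 min library of the fructose course has the unexplained mark trd in its label.

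Msn2 and Msn4 are zinc finger activators that bind the stress response element (STRE), whose core reads AGGGG on one strand and CCCCT on the other. In cells growing fast on glucose, cyclic AMP and protein kinase A keep them out of the nucleus, and after heat, oxidants, osmotic stress or loss of sugar they enter it and raise a shared set of genes. Their targets encode antioxidant enzymes, proteins of membranes and the cell surface, enzymes of carbon reserve metabolism and of pentose phosphate metabolism, and proteins that handle damaged proteins. The response is known to be repressed when cells are given glucose.

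The upstream stretches of 4 members are shown because they carry from 3 copies of the core to none, and because the same 4 genes recur in the results below. Each is read on the strand of its gene from the R64 reference genome of RefSeq (the sequence of sacCer3, the build in the submitters' processing notes), from 300 to 101 bases before the start codon, with the AGGGG and CCCCT letters in capitals. DDR2 (a DNA-damage-responsive gene of unknown biochemical function) is at chrXV:231856-232055 on the reverse strand, HSP12 at chrVI:106956-107155 on the forward strand, CTT1 (cytosolic catalase T) at chrVII:654334-654533 on the forward strand and YGP1 (a secreted cell wall glycoprotein) at chrXIV:336245-336444 on the forward strand.
DDR2: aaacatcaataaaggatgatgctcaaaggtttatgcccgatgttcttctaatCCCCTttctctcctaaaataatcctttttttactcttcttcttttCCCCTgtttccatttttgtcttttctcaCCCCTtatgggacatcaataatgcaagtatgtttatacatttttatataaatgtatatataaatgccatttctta
HSP12: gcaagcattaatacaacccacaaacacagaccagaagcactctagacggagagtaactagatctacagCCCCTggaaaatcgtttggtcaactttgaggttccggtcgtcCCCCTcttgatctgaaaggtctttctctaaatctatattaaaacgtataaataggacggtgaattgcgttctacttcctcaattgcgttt
CTT1: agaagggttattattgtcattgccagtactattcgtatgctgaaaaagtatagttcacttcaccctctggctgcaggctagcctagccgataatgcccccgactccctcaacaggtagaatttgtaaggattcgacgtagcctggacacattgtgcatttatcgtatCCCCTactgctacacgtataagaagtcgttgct
YGP1: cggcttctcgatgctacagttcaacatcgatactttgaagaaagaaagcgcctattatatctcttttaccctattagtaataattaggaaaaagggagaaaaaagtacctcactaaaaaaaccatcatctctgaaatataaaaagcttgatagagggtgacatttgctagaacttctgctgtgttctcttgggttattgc

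Over the whole 300 bases before the start codon, searched on both strands with overlapping matches allowed, 31 of the 35 members (88.6%) held the core at least once, 13 held it at least 2 times and 4 held it 3 times. Among all 6001 protein-coding genes with such a stretch, 22.2% held it at least once and 3.45% at least 2 times. MSN2, MSN4, XBP1 and YGP1 had no match in this window. A match is a description of letters, and the set was put together from genes already known as targets, so its richness in the core is no independent result.

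**Figure D1:**
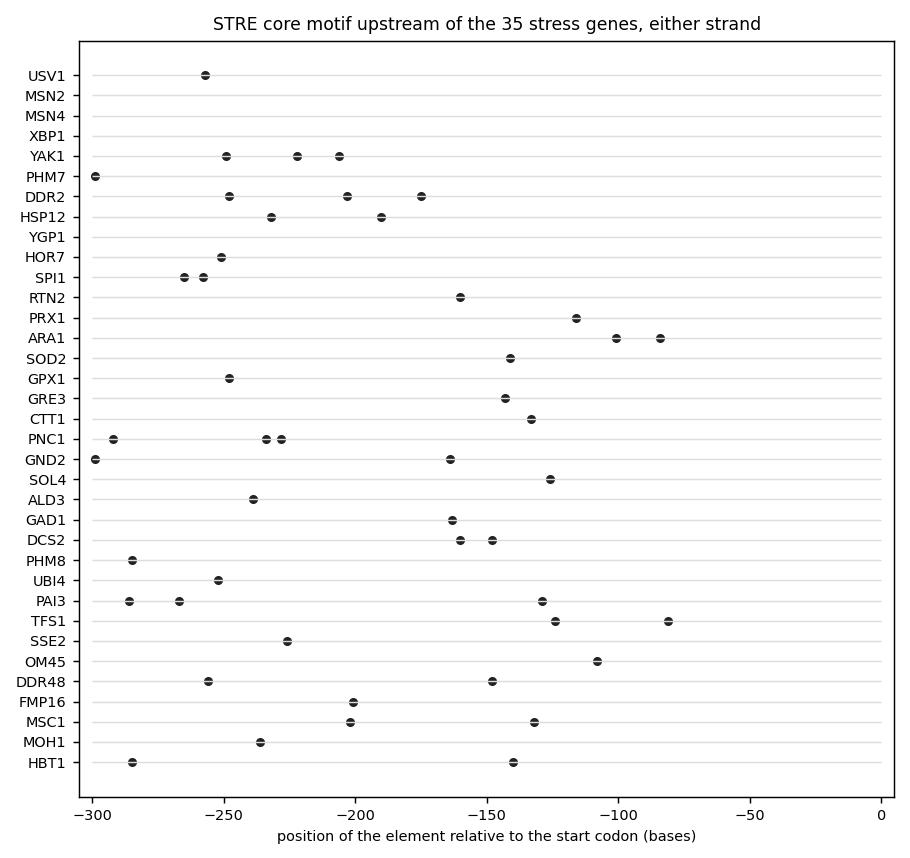
Position of the AGGGG or CCCCT core, on either strand, in the 300 bases before the start codon of each of the 35 stress genes (x axis, bases; each dot is the upstream end of 1 match). MSN2, MSN4, XBP1 and YGP1 have no dot, and DDR2, PNC1, PAI3 and YAK1 have 3 each.

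The strain labels held at TPS1, which lay between 0 and 1.18 FPKM (fragments per kilobase of gene, scaled for sequencing depth) in the 16 tps1 libraries and between 43.2 and 325.7 FPKM in the 16 WT libraries. In the late libraries of WT, but not in those of tps1, the sugar change could be read from GAL1 (galactokinase) and HXT1 (a low-affinity glucose transporter). GAL1 changed from galactose by 1.45 ± 0.53 (log2) in late tps1 glucose and by -2.68 ± 0.53 in late WT glucose, and HXT1 by 0.76 ± 1.27 in late tps1 glucose and by 6.08 ± 1.27 in late WT glucose. Depth, read off the steps between low FPKM values, was 3.99 to 9.7 M fragments per library. The sum of all FPKM values was 1.51 to 2.58 M in tps1 after sugar and 1.19 to 1.3 M in tps1 galactose, against 1.32 to 1.6 M in WT after sugar and 1.32 to 1.37 M in WT galactose. As deposited, the median over all genes lay between -0.05 and 0.02 (log2) in the comparisons, so that differences are relative to the median gene. Scaling every library to the same FPKM sum lowers tps1 values after sugar relative to tps1 galactose and to WT at the same time. For this scaling the sum was taken over genes matched to the annotation and at least 300 bp long, not over all genes. Of the counts recomputed under it, those not within 1.5 times of the first value are printed, with some others. Shares of all genes are those of the deposited values and do not apply to counts under equal FPKM sums. A change in total messenger RNA cannot be told apart from a difference in scaling, and in bulk RNA fewer cells with a transcript cannot be told apart from less of it in each cell.

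Tests used limma on log2(FPKM + 1) over all 6203 genes, and calls required both an adjusted p (Benjamini-Hochberg) under 0.05 and a difference of at least 2-fold. Fold changes are on that log2 scale, which understates those of low genes, and are given as estimate ± SE.

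In galactose no member was called between the strains, although most were lower in tps1 by value. The median difference was -0.38 over the members and 0 over all genes, 31 of 35 members lay below 0, and 19 had an unadjusted p under 0.05 (729 of all 6203 genes). Both tps1 libraries lay below both WT libraries for 25 of 35 members (23.4% of all genes tested) and above both for 0 of 35 (20.6%). The widest gap was at YGP1, with 208 and 138 FPKM in tps1 against 699 and 713 FPKM in WT, a difference of -2.05 ± 0.21 (adjusted p = 0.119). GAD1 (glutamate decarboxylase) had 28.1 and 26.5 FPKM in tps1 against 71.5 and 58.7 FPKM in WT (-1.22 ± 0.13). MSN2 and MSN4 were close, with 63.3 and 46.9 against 49.7 and 58.1 FPKM for MSN2, and 35.01 and 30.3 against 31.3 and 31.5 FPKM for MSN4, in tps1 against WT. With 2 libraries a strain the test called 1 gene higher and 7 lower of 6203 (0.0161% and 0.113%). When genes under 300 bp or not matched to the annotation were left out, an alternative chosen after seeing the data, YGP1, GAD1, SPI1 and MSC1 were called lower in tps1. The share of all genes called in that setting is not given here, and the shares above are those of the main fit. Levels differed widely within the set, from 8.92 FPKM for HBT1 to 2615 FPKM for HOR7 as means of the 4 galactose libraries. Being per length, these can be compared between genes, apart from the shortest (below).

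After sugar the strains moved apart. In tps1 the median over the members stood 0.84 above galactose at 120 min of glucose and 0.59 above it at 120 min of fructose (log2). In WT it stood at -1.41 at 10 min of glucose and -1.22 at 10 min of fructose, and at -0.45 and -0.57 at 120 min. The median of all genes lay between -0.06 and 0.04 in every library. At its lowest point after sugar, a member was under a 0.5-fold level of its galactose mean for 2 of 35 members in tps1 glucose (24.5% of all genes) and 5 in tps1 fructose (21.6%), against 27 in WT glucose (16.1%) and 24 in WT fructose (16%). In tps1 the highest point passed 2-fold for 21 members in glucose (17.8% of all genes) and 5 in fructose (14.3%), against 3 in each WT course (11.3% and 12.0%). The lowest level of a WT course was most often at 10 min, for 13 members in glucose and 12 in fructose. In tps1 glucose 17 members had their highest level at 120 min and 11 at 60 min, and in tps1 fructose 15 were highest at 120 min.

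**Figure D2:**
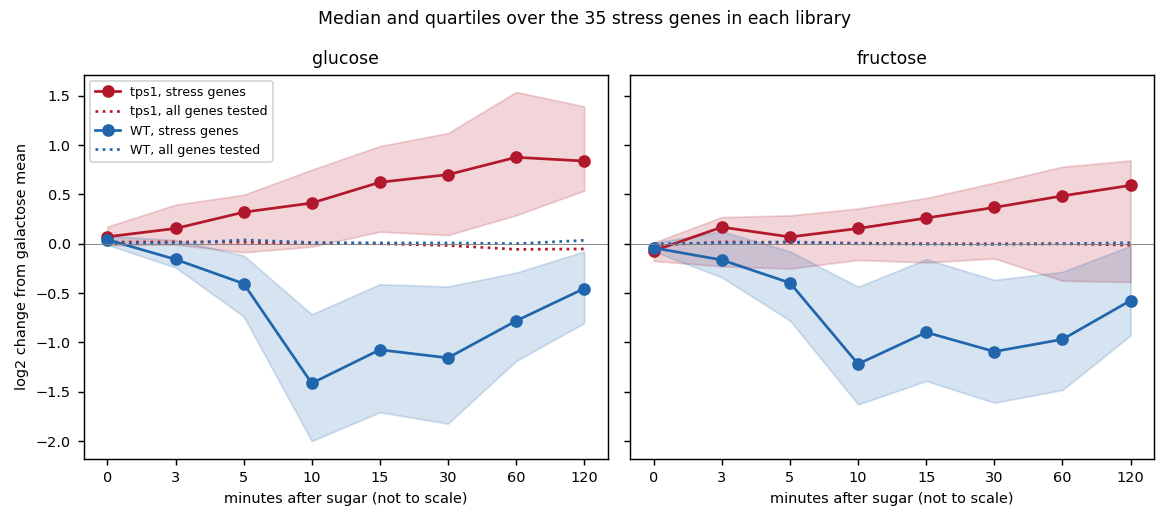
Median (points) and quartiles (band) over the 35 stress genes of the log2 change from the galactose mean of the same strain (y axis), in each library against time after sugar (x axis, min, not to scale). In tps1 (red) the glucose median reaches 0.84 at 120 min, in WT (blue) it is -1.41 at 10 min, and the dotted medians of all genes stay near 0.

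Against the galactose libraries of their strain, 0 members were called higher and 1 lower in early tps1 glucose (0.403% and 3.27% of all genes), and 11 higher and 2 lower in late tps1 glucose (7.48% and 7.85%). The 11 were ALD3, ARA1, FMP16, GAD1, GND2, HOR7, HSP12, SPI1, TFS1, UBI4 and YGP1, and the pair that fell was MSN2 and MSN4. In tps1 fructose 1 was higher and 1 lower early (0.645% and 2.37%), and 4 were higher and 3 lower late (7.5% and 8.77%), where ARA1, HOR7, TFS1 and UBI4 rose and MSN2, MSN4 and RTN2 fell. WT glucose had 0 higher and 9 lower early (3.89% and 3.16%), and 0 higher and 3 lower late (0.451% and 1.29%). WT fructose had 1 higher and 6 lower early (2.42% and 2.64%), and 0 higher and 8 lower late (1.52% and 2.45%). Under equal FPKM sums the late tps1 counts were 2 higher and 2 lower in glucose and 1 higher and 11 lower in fructose, with medians of 0.13 and -0.43 over the members beside -0.76 and -0.87 over all genes. These counts also hung on single libraries: each of the 4 WT counts was 0 or 1 with either WT galactose library left out, and in early tps1 glucose and fructose 0 members were called without the tps1 galactose library of the glucose course.

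**Figure D3:**
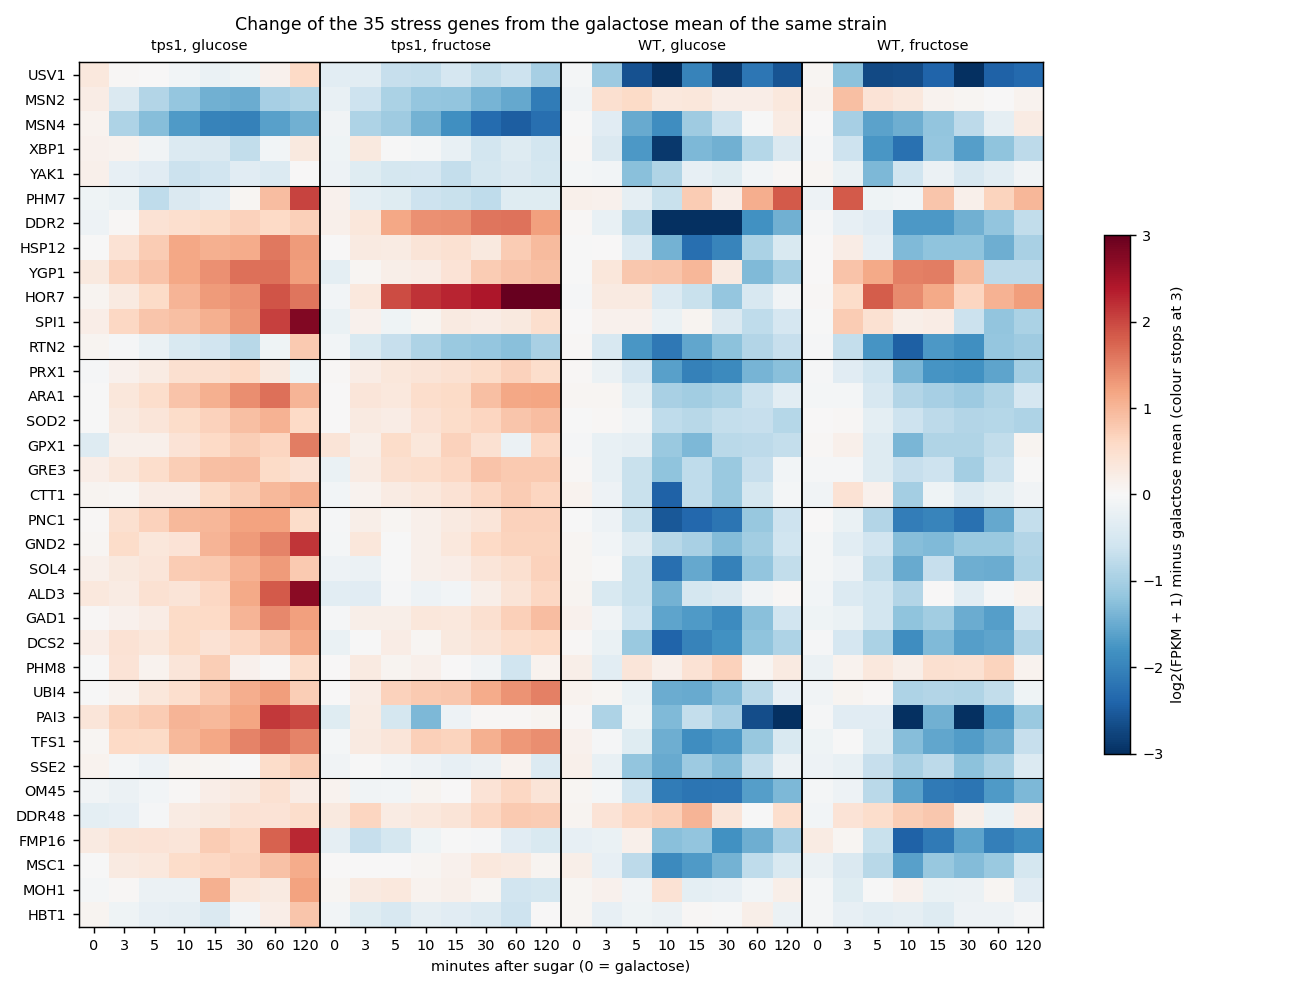
Change of each of the 35 stress genes (y axis, grouped by role) from the galactose mean of its own strain, as log2(FPKM + 1), in every library (x axis, min after sugar). Most genes are red in tps1 glucose and blue from 10 min on in WT. Among the exceptions are MSN2 and MSN4 (blue in tps1), YGP1 and DDR48 (red early in WT), HOR7 (red in WT fructose) and PHM7 (red late in WT).

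The strains were compared at matched sugar and time, with 4 differences early and 3 late. In early glucose 8 members were higher in tps1 than in WT and 4 lower (5.14% and 8.06% of all genes), and in late glucose 20 were higher and 3 lower (11.0% and 10.6%). Early fructose had 3 higher and 5 lower (3.63% and 5.4%), and late fructose 14 higher and 3 lower (9.64% and 9.8%). The median over the members was 0.71 in early glucose, 1.41 in late glucose, 0.18 in early fructose and 0.71 in late fructose. The 14 members called higher in late fructose were also called higher in late glucose, and 6 more were called in late glucose only. A test of whether the strain difference depended on the sugar (limma) called no member, early (0 of 6203 genes) or late (0.0806% of genes higher and 0.0645% lower). An unadjusted p under 0.05 was found for 3 members early (282 of all 6203 genes) and for 7 late (1170 of all 6203 genes). USV1 and PRX1 were called higher in all 4 comparisons, MSN2 and PHM7 lower in all 4, and 9 members in none. Under equal FPKM sums the counts were 3 higher and 4 lower, 15 and 4, 1 and 5, and 9 and 6 in the same order. The shares of all genes above do not apply to these counts. Among the members described below, PRX1 then kept its call in late fructose only, the calls of XBP1, those of HSP12, ARA1 and UBI4 in early glucose and that of OM45 in late glucose were lost, and so were the calls of HSP12, SOL4, GND2, PAI3 and DDR2 in late fructose, all with the sign kept. Taking calls in either direction together, the early glucose count was 20 and the early fructose count 13 without the 3 min pair, and 6 and 5 without the 10 min pair. The shares of all genes in these fits are not given here.

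The same differences were also set relative to the strain difference in galactose, which rests on the pair of galactose libraries of each strain. The relative counts were not recomputed under equal FPKM sums or with 1 library left out. Then 11 members were higher and 1 lower in early glucose (3.4% and 6.42% of all genes), 24 and 2 in late glucose (8.8% and 8.06%), 0 and 1 in early fructose (1.05% and 2.29%) and 16 and 2 in late fructose (8.08% and 7.48%). MSN2 was the member lower in both early comparisons, and MSN2 and MSN4 were those lower in both late ones. YGP1, DDR48 and PHM7, lower in tps1 at matched times, were not called lower on this measure, and YGP1 was among those higher in late glucose (2.20 ± 0.56, adjusted p = 0.00497).

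The difference opened between 5 and 10 min. With both sugars of a time taken as 2 samples, 0 members were higher in tps1 than in WT and 4 lower at 3 min (0.709% and 2.79% of all genes), and 2 and 3 at 5 min (3.34% and 7.17%). At 10 min 18 were higher and 3 lower (8.51% and 10.2%), and at 15 min 14 and 4 (8.37% and 9.38%). The counts were 17 and 4 at 30 min (10.9% and 11.3%), 16 and 3 at 60 min (11.0% and 10.8%) and 12 and 3 at 120 min (8.69% and 7.25%). Under equal FPKM sums, to which these shares do not apply, they were 13 and 3 at 10 min and 10 and 5 at 15 min. They were 13 and 6 at 30 min, 10 and 5 at 60 min and 3 and 4 at 120 min. The single libraries went the same way by value: 21 of 35 members were at least 2-fold higher in tps1 than in WT at 10 min of glucose (11.5% of all genes) and 14 at 10 min of fructose (8.74%), and 31 and 21 lay above 0 at 120 min.

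**Figure D4:**
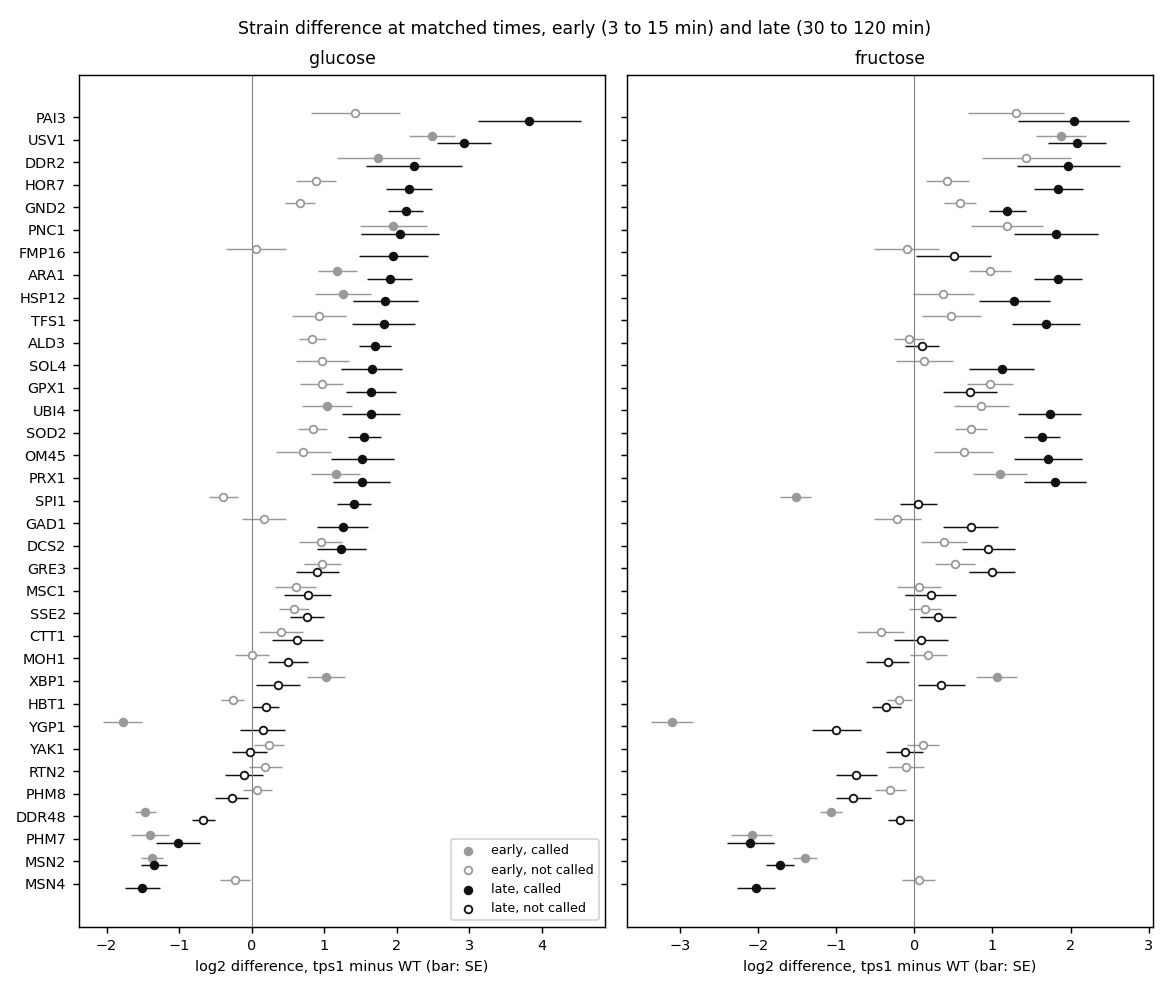
Strain difference, tps1 minus WT, of each stress gene (y axis) in glucose and fructose, as log2 difference ± SE (x axis), early (grey, 4 matched differences) and late (black, 3). Filled points are called: 20 genes lie to the right and 3 to the left in late glucose, and 14 and 3 in late fructose.

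Of the 5 regulators 2 were higher and 1 lower in tps1 than in WT in early glucose, and again in early fructose, and 1 was higher and 2 lower late in each sugar. MSN2 (YMR037C), the main activator, was lower in tps1 than in WT at each time after sugar. In tps1 cells MSN2 ran at 63.3, 40.4, 29.3, 23.9, 19.5, 18.9, 26.8 and 28.6 FPKM over the 8 times of glucose and 46.9, 34.9, 27.7, 23.7, 23.3, 20.1, 18.1 and 11.96 FPKM over those of fructose. In WT it ran at 49.7, 75.1, 80.6, 67.4, 68.2, 61.5, 61.95 and 67.5 FPKM in glucose and 58.1, 101, 71.9, 66.9, 57.7, 55.9, 54.5 and 57.6 FPKM in fructose. From 3 min on every tps1 library lay below every WT library. The strain difference of MSN2 was -1.38 ± 0.15 (adjusted p = 1.81e-05) in early and -1.35 ± 0.18 (adjusted p = 3.09e-05) in late glucose, and -1.39 ± 0.15 (adjusted p = 2.29e-05) in early and -1.72 ± 0.18 (adjusted p = 1.09e-05) in late fructose. It was called lower at each of the 7 times, and the 4 calls by phase held with any library left out. Of the calls at single times that at 3 min (-1.19) was lost without the tps1 fructose library of that time (-1.09, adjusted p = 0.0766) or the WT one (-0.98, adjusted p = 0.105). Relative to the galactose difference it stayed called in all 4 comparisons (-1.37 to -1.74).

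MSN4 (YKL062W), the second activator, was near its galactose level at 60 and 120 min in WT and far below it in tps1. Its levels in tps1 were 35.01, 16.7, 12.8, 9.36, 7.42, 7.22, 9.90 and 11.4 FPKM in glucose and 30.3, 16.7, 15.1, 11.6, 8.43, 5.75, 5.02 and 5.98 FPKM in fructose. WT had 31.3, 24.4, 10.4, 7.96, 14.4, 19.8, 30.9996 and 37.4 FPKM in glucose and 31.5, 15.3, 9.66, 10.7, 13.2, 17.8, 25.6 and 37.1 FPKM in fructose. At 5 min both tps1 libraries were above both WT libraries, and from 15 min on every tps1 library was below every WT library. MSN4 differed by -0.23 ± 0.21 and 0.06 ± 0.21 in early glucose and fructose, not called. It differed by -1.51 ± 0.24 (adjusted p = 0.000144) in late glucose and -2.02 ± 0.24 (adjusted p = 2.95e-05) in late fructose. The change of that difference between early and late was itself called, at -1.28 ± 0.43, adjusted p = 0.0438 in glucose (1.55% of all genes were lower) and -2.08 ± 0.43, adjusted p = 0.0122 in fructose (0.435%).

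USV1 (YPL230W), a zinc finger regulator whose loss affects growth on non-fermentable carbon, had the lowest difference from galactose of all 35 members in each of the 4 WT comparisons. In tps1 USV1 stood at 72.7, 60.4, 58.98, 54.95, 50.9999, 53.4, 64.4 and 88.3 FPKM in glucose and 46.9, 46.8, 35.8, 35.1, 40.6, 34.7, 37.6 and 28.9 FPKM in fructose. WT libraries had 48.95, 23.4, 7.57, 3.02, 12.1, 6.20, 10.6 and 7.67 FPKM in glucose and 53.6, 21.3, 7.03, 7.18, 8.82, 4.34, 8.79 and 9.38 FPKM in fructose. No tps1 library after sugar was as low as any WT library after sugar. The strain difference was 2.48 ± 0.32 (adjusted p = 5.17e-05) and 2.93 ± 0.37 (adjusted p = 2.35e-05) in early and late glucose, beside 1.88 ± 0.32 (adjusted p = 0.000606) and 2.08 ± 0.37 (adjusted p = 0.000374) in the same phases of fructose. Against galactose USV1 changed by -0.06 ± 0.44 and 0.20 ± 0.47 in early and late tps1 glucose, not called, and by -2.35 ± 0.44 and -2.54 ± 0.47 in early and late WT glucose, both called. The late WT call was lost without the galactose library of the fructose course (adjusted p = 0.0613).

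XBP1 (YIL101C), a repressor of cyclin genes induced by stress, had its lowest WT level at 10 min and had not regained its galactose level by 120 min. It ran at 29.97, 29.8, 25.6, 20.6, 20.2, 16.1, 25.8 and 33.8 FPKM in tps1 glucose and 25.2, 33.9, 27.4, 26.2, 23.4, 18.6, 20.9 and 18.3 FPKM in tps1 fructose. The WT values were 37.2, 26.2, 10.3, 4.01, 13.5, 12.5, 19.6 and 26.3 FPKM in glucose and 34.9, 23.3, 10.1, 6.90, 15.5, 10.8, 14.98 and 20.4 FPKM in fructose. XBP1 was higher in tps1 early, by 1.02 ± 0.26 (adjusted p = 0.00526) in glucose and 1.06 ± 0.26 (adjusted p = 0.00661) in fructose, and was not called late (0.36 ± 0.30 and 0.34 ± 0.30). Without the 10 min pair the early differences were 0.66 in glucose and 0.81 in fructose, and without the 5 min pair 0.95 and 0.96, none of them called. Under equal FPKM sums they were 0.73 and 0.85, and with a pseudocount of 5 they were 0.78 and 0.86, likewise not called. YAK1, a kinase that opposes protein kinase A, was called between the strains at no phase and at no single time. Its coding region overlaps another annotated gene on the same strand by 245 bp.

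**Figure D5:**
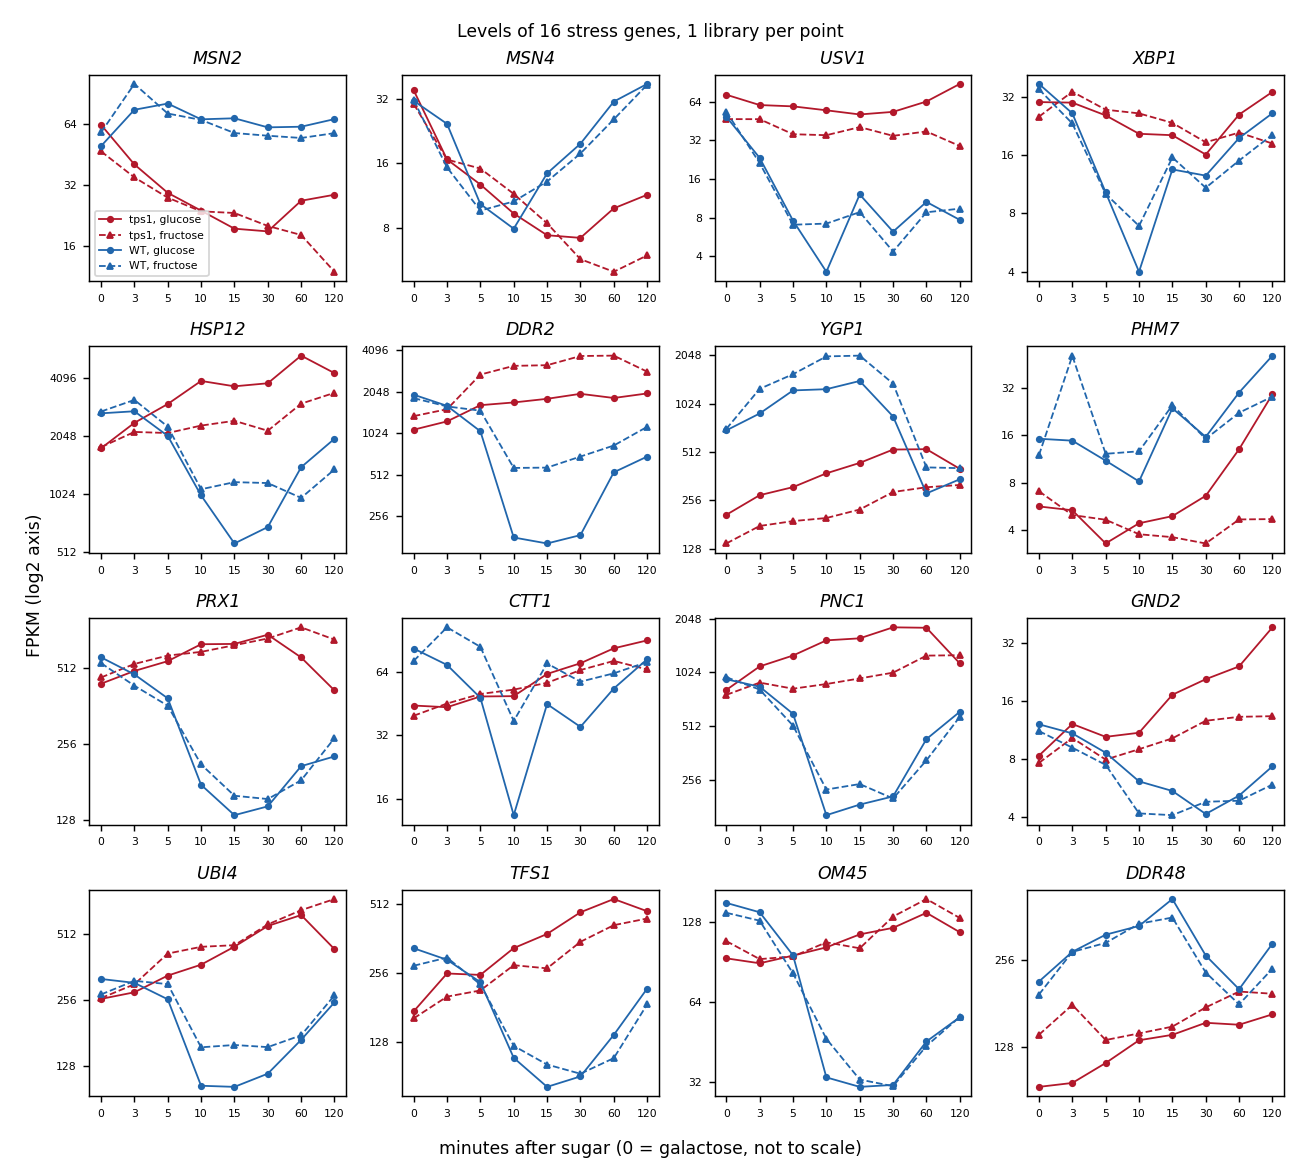
FPKM (y axis, log2 scale) of 16 stress genes against time after sugar (x axis, min, not to scale), 1 library per point, tps1 in red and WT in blue, glucose as circles and fructose as triangles. The WT curves of HSP12, DDR2, PRX1, PNC1, UBI4, TFS1 and OM45 dip from 10 min on while the tps1 curves do not, MSN2 is below WT in tps1, and YGP1 and DDR48 are below WT in tps1 early.

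HSP12 (YFL014W), which encodes a small membrane-stabilising heat shock protein and is widely used as a reporter of Msn2/4 activity, was among the most abundant members. In tps1 HSP12 ran at 1759, 2383, 2984, 3931, 3687, 3823, 5319 and 4316 FPKM in glucose and 1784, 2139, 2110.4, 2307, 2442, 2169, 2997 and 3413 FPKM in fructose. In WT it ran at 2670.1, 2737, 2041, 1002, 565, 687, 1403 and 1971 FPKM in glucose and 2728, 3134, 2278, 1079, 1174, 1162, 973 and 1367 FPKM in fructose. The tps1 libraries were below those of WT at 0 min, and from 10 min on the lowest tps1 library was above the highest WT library. HSP12 was higher in tps1 by 1.26 ± 0.39 (adjusted p = 0.0149) in early and 1.84 ± 0.45 (adjusted p = 0.00306) in late glucose and by 1.28 ± 0.45 (adjusted p = 0.0265) in late fructose, and differed by 0.37 ± 0.39 in early fructose, not called. The late glucose call held with any late library left out (adjusted p 0.00472 to 0.0365). The early glucose call was lost without the 10 min pair (1.02, adjusted p = 0.0911) or the 15 min pair (0.77, adjusted p = 0.127), and the late fructose call without the 60 min pair (1.11, adjusted p = 0.13) or the 120 min pair (1.26, adjusted p = 0.0893). Under equal FPKM sums HSP12 differed by 0.94 in early glucose and 0.72 in late fructose (adjusted p = 0.118), neither called.

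DDR2 (YOL052C-A), whose 3 cores are printed above, had the second lowest difference from galactose in early WT glucose, after USV1 (adjusted p = 0.0358, a call lost with either galactose library or the 10 or 15 min library left out, adjusted p 0.117 to 0.218). Its tps1 levels were 1090.0, 1252, 1642, 1718, 1826, 1984, 1851 and 1997 FPKM in glucose and 1367, 1534, 2737, 3166, 3201, 3732, 3756 and 2873 FPKM in fructose. WT had 1957, 1623, 1062, 180.1, 163, 187, 535 and 695 FPKM in glucose and 1847, 1608, 1498, 575, 579, 696, 837 and 1143 FPKM in fructose. From 5 min on every tps1 library was above every WT library of any of those times. The difference was 1.74 ± 0.57 (adjusted p = 0.0197) in early and 2.24 ± 0.66 (adjusted p = 0.00979) in late glucose, and 1.97 ± 0.66 (adjusted p = 0.0208) in late fructose. Each call was lost with a library left out: early glucose without the 10 or 15 min pair (1.24 and 1.17), late glucose without the 30 min pair (1.65) and late fructose without the 30 or 60 min pair (1.75 and 1.87). DDR2 is 186 bp long, and FPKM of very short genes scattered: over 38 genes of 190 bp or less with a mean of at least 10 FPKM, the spread of the glucose minus fructose difference at matched strain and time had a median SD of 3.88 (log2), against 0.23 over 4065 genes over 600 bp. HOR7 (180 bp), PAI3 (207 bp) and FMP16 (282 bp) are the other members under 300 bp, and the SD was 0.67 over 126 genes of over 190 and up to 300 bp.

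YGP1 (YNL160W), the secreted glycoprotein gene with no core in its printed stretch, went the other way early. In tps1 YGP1 ran at 208, 276, 309, 377, 438, 531, 534 and 402 FPKM in glucose and 138, 177, 190.1, 199, 224, 289, 309 and 319 FPKM in fructose. In WT it reached its highest level at 15 min, with 699, 890.2, 1239.6, 1262, 1419, 853, 283 and 347 FPKM in glucose and 713, 1268, 1564, 2019.6, 2042, 1367, 411 and 406 FPKM in fructose. Up to 30 min every tps1 library was below every WT library, and at 60 and 120 min the strains overlapped. YGP1 was lower in tps1 by -1.78 ± 0.27 (adjusted p = 0.000175) in early glucose and -3.10 ± 0.27 (adjusted p = 3.30e-06) in early fructose, and was not called late (0.15 ± 0.31 in glucose, and adjusted p = 0.015 in fructose at just under 2-fold). Since the strains already stood apart in galactose, the early glucose difference relative to galactose had the other sign, at 0.27 (adjusted p = 0.749). Against galactose YGP1 was called higher in late tps1 glucose (1.51 ± 0.40, adjusted p = 0.0032) and in early WT fructose (1.26 ± 0.38, adjusted p = 0.0294). The first call was lost without the galactose library of the fructose course (1.22) or under equal FPKM sums (0.74, adjusted p = 0.0689) and the second without any 1 of 5 WT libraries (1.17 to 1.30).

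PHM7 (YOL084W), a membrane protein gene regulated by phosphate, was lower in tps1 throughout. Its tps1 values were 5.66, 5.35, 3.30, 4.43, 4.91, 6.61, 13.02 and 29.03 FPKM in glucose and 7.06, 4.99, 4.66, 3.77, 3.61, 3.30, 4.68 and 4.70 FPKM in fructose. WT had 15.2, 14.8, 11.02, 8.14, 23.6, 15.6, 29.8 and 50.9 FPKM in glucose and 11.9, 50.8, 12.2, 12.6, 24.7, 15.1, 22.2 and 28.1 FPKM in fructose, with a single high library at 3 min of fructose. PHM7 differed by -1.40 ± 0.26 (adjusted p = 0.000642) and -1.02 ± 0.30 (adjusted p = 0.00966) in early and late glucose, as well as by -2.08 ± 0.26 (adjusted p = 6.33e-05) and -2.10 ± 0.30 (adjusted p = 8.57e-05) in the same phases of fructose. The late glucose call was lost without the 30 min pair (-0.96) or the 60 min pair (-0.96), and both glucose calls were lost with a pseudocount of 5 (-0.97 early and -0.83 late). Relative to the galactose difference none of the 4 was called (-0.42, -0.03, -1.10 and -1.11). Among the 7 surface and membrane members 2 were higher and 2 lower in tps1 in early glucose, 4 and 1 in late glucose, 0 and 3 in early fructose and 3 and 1 in late fructose. SPI1, a cell wall protein gene, was lower in early fructose (-1.52 ± 0.20) and higher in late glucose (1.41 ± 0.23), and RTN2, a reticulon gene, was called in none of the 4.

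Among the 6 redox genes 2 were called higher in tps1 in early glucose, 4 in late glucose, 1 in early fructose and 3 in late fructose, and none lower. PRX1 (YBL064C) encodes the mitochondrial peroxiredoxin. In tps1 PRX1 ran at 445, 500.0, 547, 638, 639.9, 696, 566 and 419 FPKM in glucose and 471, 533, 575, 595, 632, 672, 745 and 666 FPKM in fructose. WT libraries had 566, 485, 389.6, 177, 134, 145, 209.8 and 229 FPKM in glucose and 537, 437, 364, 213, 160.2, 155, 184 and 271 FPKM in fructose. From 5 min on every tps1 library was above every WT library. PRX1 was higher by 1.16 ± 0.34 (adjusted p = 0.0116) and 1.51 ± 0.40 (adjusted p = 0.00468) in early and late glucose, as well as by 1.10 ± 0.34 (adjusted p = 0.0212) and 1.80 ± 0.40 (adjusted p = 0.00167) in the same phases of fructose. The early calls were lost without the 10 min pair (0.93 in glucose and 0.97 in fructose) or the 15 min pair (0.79 and 0.81), and the late glucose call without the 30 min pair (1.15, adjusted p = 0.0607).

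SOD2 (YHR008C), the mitochondrial manganese superoxide dismutase, and ARA1 (YBR149W), an NADP-dependent sugar dehydrogenase, were higher in tps1 than in WT late in both sugars. SOD2 had 1524, 1849.9, 1951, 2244, 2479, 2842, 3150.1 and 2311 FPKM in tps1 glucose and 1530.3, 1841, 1774, 2068, 2227, 2398, 2727 and 2885 FPKM in tps1 fructose. In WT SOD2 had 1583, 1614, 1475, 931, 887, 967, 974 and 870.3 FPKM in glucose and 1583, 1631, 1301, 1027, 918, 865, 878 and 827 FPKM in fructose. It differed by 1.55 ± 0.23 (adjusted p = 8.19e-05) in late glucose and 1.64 ± 0.23 (adjusted p = 8.14e-05) in late fructose, and its WT level was lowest at 120 min in both sugars. ARA1 had 379, 486, 558, 696, 809, 1019.8, 1201 and 778 FPKM in tps1 glucose and 390.4, 494, 483, 557, 577, 723, 859.9 and 869 FPKM in tps1 fructose. In WT ARA1 had 427, 421, 334, 206, 197, 212, 260.2 and 329 FPKM in glucose and 389, 392, 294, 219.9, 203, 191, 216 and 287 FPKM in fructose. It differed by 1.18 ± 0.27 (adjusted p = 0.00236) in early and 1.90 ± 0.31 (adjusted p = 0.000157) in late glucose, and by 1.83 ± 0.31 (adjusted p = 0.000262) in late fructose. The early call was lost without the 10 min pair (0.99) or the 15 min pair (0.90). ARA1 was also called higher than galactose in late tps1 glucose (1.35 ± 0.29) and fructose (1.08 ± 0.29), differences that were 0.58 and 0.17 under equal FPKM sums, not called.

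CTT1 (YGR088W), the catalase gene that is a standard reporter of this response, was not called in any of the 4 strain comparisons. In tps1 CTT1 ran at 44.2, 43.4, 48.8, 48.95, 62.3, 70.03, 82.4 and 89.8 FPKM in glucose and 39.6, 45.2, 50.1, 52.6, 56.6, 65.03, 71.8 and 65.5 FPKM in fructose. WT had 82.2, 68.8, 48.1, 13.4, 44.9, 35.03, 53.2 and 73.2 FPKM in glucose and 71.8, 104, 83.7, 37.4, 69.8, 57.3, 62.8 and 70.99 FPKM in fructose. At 3 min both tps1 libraries were below both WT libraries, at 10, 30 and 60 min both were above, and at 120 min the strains overlapped. The difference of CTT1 was 0.41 ± 0.30 early and 0.63 ± 0.35 late in glucose, and -0.43 ± 0.30 early and 0.09 ± 0.35 late in fructose (adjusted p = 0.268, 0.137, 0.266 and 0.858). Of the single times CTT1 was called at 10 min, at 1.14 ± 0.34 (adjusted p = 0.00931). That call rested on the WT glucose library of 10 min, without which the difference was 0.43 (adjusted p = 0.317), and it was also lost under equal FPKM sums (0.80, adjusted p = 0.0631) and, just under 2-fold, with a pseudocount of 5. GPX1, a glutathione peroxidase gene, was called higher in late glucose (1.64 ± 0.34), and GRE3, an aldose reductase gene, in none of the 4 phases (0.90 ± 0.30 in late glucose).

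Among the 7 metabolic genes 1 was higher in tps1 in early glucose, 6 in late glucose, 0 in early fructose and 3 in late fructose, and none lower. PNC1 (YGL037C) encodes nicotinamidase. In tps1 PNC1 ran at 815, 1105, 1272, 1547, 1588, 1831, 1820.0 and 1148 FPKM in glucose and 765, 896, 828, 879.7, 946, 1019, 1270.1 and 1276 FPKM in fructose. WT had 936, 849.6, 599, 161, 185, 206, 432 and 615 FPKM in glucose and 961, 819, 514, 225, 241, 200.3, 328 and 576 FPKM in fructose. At 10 min of glucose the WT level was the lowest of its course, and from 5 min on no tps1 library was as low as any WT library. PNC1 was higher by 1.95 ± 0.46 (adjusted p = 0.00318) in early and 2.04 ± 0.53 (adjusted p = 0.0048) in late glucose and by 1.81 ± 0.53 (adjusted p = 0.0107) in late fructose. The late glucose call was lost without the 30 min pair (1.49, adjusted p = 0.067) and the late fructose call without the 30 min pair (1.55) or the 60 min pair (1.74).

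GND2 (YGR256W), the stress-induced isoform of 6-phosphogluconate dehydrogenase, and SOL4 (YGR248W), a 6-phosphogluconolactonase, act in neighbouring steps of the pentose phosphate pathway. GND2 had 8.33, 12.2, 10.4, 10.9, 17.2, 20.8, 24.2 and 38.6 FPKM in tps1 glucose and 7.63, 10.3, 7.94, 8.99, 10.2, 12.6, 13.2 and 13.3 FPKM in tps1 fructose. In WT GND2 had 12.1, 10.9, 8.62, 6.12, 5.45, 4.14, 5.16 and 7.33 FPKM in glucose and 11.2, 9.16, 7.45, 4.17, 4.08, 4.79, 4.85 and 5.89 FPKM in fructose. It was higher in tps1 by 2.12 ± 0.24 (adjusted p = 1.08e-05) in late glucose and 1.19 ± 0.24 (adjusted p = 0.000908) in late fructose. The GND2 call in late fructose was lost, being under 2-fold, with equal FPKM sums (0.68) and with a pseudocount of 5 (0.83). SOL4 had 65.5, 71.4, 75.1, 99.8, 102, 121, 144 and 102 FPKM in tps1 glucose and 52.4, 52.1, 58.5, 65.4, 67.04, 76.1, 82.4 and 95.7 FPKM in tps1 fructose. In WT SOL4 had 99.3, 94.6, 59.3, 19.2, 32.03, 22.8, 41.6 and 56.6 FPKM in glucose and 91.8, 85.1, 56.6, 32.9, 58.3, 33.8, 33.3 and 49.96 FPKM in fructose. It was higher by 1.65 ± 0.42 (adjusted p = 0.00369) in late glucose and 1.12 ± 0.42 (adjusted p = 0.0341) in late fructose, and the fructose call was lost with any late fructose library left out (1.04 to 1.22, adjusted p 0.077 to 0.129). From 10 min on every tps1 library of both genes was above every WT library. ALD3, a cytosolic aldehyde dehydrogenase gene, GAD1 and DCS2, an inhibitor of the mRNA cap hydrolase Dcs1, were called in late glucose only (1.70 ± 0.22, 1.25 ± 0.35 and 1.23 ± 0.34). PHM8, a lysophosphatidic acid phosphatase gene, was called in none. Of the ALD3 coding sequence 40.4% of 50-base stretches occur more than once in the genome, so reads of ALD3 could be split with its near-identical neighbour copy.

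Of the 4 genes of protein turnover and folding 1 was higher in tps1 in early glucose, 3 in late glucose, 0 in early fructose and 3 in late fructose, and none lower. UBI4 (YLL039C), the stress-inducible polyubiquitin gene, was higher in tps1 than in WT from 5 min on. In tps1 UBI4 ran at 259.9, 279, 332, 372, 450.1, 559.7, 628 and 439 FPKM in glucose and 262, 303, 419, 449, 457, 569, 661 and 743 FPKM in fructose. WT had 321, 308, 259, 104, 103, 118, 169 and 251 FPKM in glucose and 272, 314, 304, 156, 160.1, 157, 177 and 269.9 FPKM in fructose. No tps1 library from then on was as low as any WT library. It differed by 1.04 ± 0.35 (adjusted p = 0.0222) in early and 1.64 ± 0.40 (adjusted p = 0.00315) in late glucose and by 1.73 ± 0.40 (adjusted p = 0.00244) in late fructose. The early call was lost without the 10 min pair (0.78) or the 15 min pair (0.68). Some of its sequence is repeated (18.2% of 50-base stretches), so its level is uncertain.

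TFS1 (YLR178C) and PAI3 (YMR174C) encode inhibitors of vacuolar proteases, of carboxypeptidase Y and of proteinase A. TFS1 had 174, 255, 252, 329, 379.8, 472, 539.8 and 477 FPKM in tps1 glucose and 162, 202, 215, 277, 269, 351, 415 and 444 FPKM in tps1 fructose. In WT TFS1 had 329, 293, 234, 109, 81.5, 90.6, 138 and 219 FPKM in glucose and 276, 299, 229, 123, 102, 93.04, 109 and 187 FPKM in fructose. It was higher in tps1 by 1.82 ± 0.43 (adjusted p = 0.00259) in late glucose and 1.69 ± 0.43 (adjusted p = 0.00471) in late fructose. PAI3 had 55.9, 69.3, 73.6, 87.8, 85.2, 98.6, 190.1 and 172 FPKM in tps1 glucose and 32.9, 51.2, 29.7, 16.4, 38.4, 44.3, 43.99 and 45.3 FPKM in tps1 fructose. In WT PAI3 had 50.6, 25.7, 45.1, 19.1, 29.8, 24.4, 7.07 and 4.62 FPKM in glucose and 48.7, 38.8, 39.0002, 0, 17.6, 2.88, 14.1 and 22.3 FPKM in fructose, and is listed at 0 in 1 library. Its difference of 3.83 ± 0.71 (adjusted p = 0.00045) in late glucose was the widest of the set, with the widest SE, in a gene of 207 bp. In late fructose PAI3 differed by 2.04 ± 0.71 (adjusted p = 0.0262), and the call was lost without the 30 min pair (1.28, adjusted p = 0.224), without the 60 min pair (2.27, adjusted p = 0.0586) or under equal FPKM sums (adjusted p = 0.0859). SSE2 was called between the strains at no phase (0.77 ± 0.23 in late glucose) and was lower than galactose in early WT glucose (adjusted p = 0.0194).

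Of the 6 mitochondrial and unclassed members 2 were higher in tps1 in late glucose and 1 in late fructose, and 1 was lower early in each sugar. OM45 (YIL136W), a protein of the mitochondrial outer membrane, was higher in tps1 late. It ran at 93.4, 89.5, 95.7, 103, 115, 122, 139 and 117 FPKM in tps1 glucose and 108, 92.8, 94.9, 107, 102, 134, 156 and 133 FPKM in tps1 fructose. In WT OM45 ran at 151, 139, 95.9, 33.3, 30.7, 31.2, 45.4 and 56.1 FPKM in glucose and 139, 129, 82.01, 46.5, 32.7, 30.8, 43.7 and 56.2 FPKM in fructose. From 10 min on every tps1 library was above every WT library. OM45 differed by 1.52 ± 0.44 (adjusted p = 0.00835) in late glucose and 1.71 ± 0.44 (adjusted p = 0.00462) in late fructose. Its level in tps1 changed by 0.32 ± 0.47 against galactose in late glucose, not called, and in WT by -1.73 ± 0.47 (adjusted p = 0.0455). The strain call in late glucose was lost without the 30 min pair (1.32, adjusted p = 0.0628), and the WT call with either galactose library or the 30 or 60 min library left out (adjusted p 0.0896 to 0.324).

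DDR48 (YMR173W), a DNA damage-responsive gene, was lower in tps1 early. In tps1 DDR48 had 93.005, 95.97, 113, 135, 141, 155, 153 and 166 FPKM in glucose and 141, 179, 135, 143, 151, 176, 199.6 and 196 FPKM in fructose. WT had 216, 274, 315, 338, 419, 266, 203 and 293 FPKM in glucose and 195, 274, 295, 344, 361, 232, 180.1 and 239.8 FPKM in fructose, highest at 15 min in both sugars. It differed by -1.46 ± 0.14 (adjusted p = 5.37e-06) in early glucose and -1.06 ± 0.14 (adjusted p = 9.42e-05) in early fructose, and by -0.67 ± 0.16 and -0.18 ± 0.16 late, not called. Without the 10 or the 15 min pair the fructose difference was just under 2-fold (-0.99 without the 10 min pair). Repeats make up 32.5% of its 50-base stretches. Of the rest of this group FMP16 was called in late glucose (1.95 ± 0.48), and MSC1, HBT1 and MOH1 in no phase.

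The sugars gave different levels for a few members. Late in tps1, glucose was higher than fructose for 5 members and lower for 1 (2.11% and 1.16% of all genes), and early none was called by limma (0.0645% and 0.129%). Early, 16 of 35 members had an unadjusted p under 0.05, beside 1063 of all 6203 genes. Between 5 and 9 members were called late with 1 late library left out. The genes described here were chosen after their values were seen. The 5 were ALD3 (1.50 ± 0.16, adjusted p = 6.08e-05), SPI1 (1.71 ± 0.16, adjusted p = 3.42e-05), FMP16 (1.84 ± 0.33), PHM7 (1.51 ± 0.31) and RTN2 (1.06 ± 0.18). SPI1 ran at 90.8, 123, 142, 148, 166, 198, 330.2 and 544 FPKM in tps1 glucose and 68.5, 86.8, 72.02, 83.2, 95.01, 91.5, 97.5 and 112 FPKM in tps1 fructose. ALD3 ran at 24.04, 23.1, 26.9, 25.4, 30.2, 43.3, 71.2 and 132 FPKM in tps1 glucose and 15.3, 14.9, 18.7, 17.1, 17.998, 21.9, 25.4 and 29.97 FPKM in tps1 fructose. For both genes the highest level was at 120 min of glucose, and every glucose library from 30 min on was above every fructose library.

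HOR7 (YMR251W-A), a small hyperosmolarity-responsive gene, was lower in glucose than in fructose in both strains. Between the strains HOR7 was called higher in tps1 late in each sugar, and in neither sugar early. In tps1 HOR7 had 2753, 3105, 3836, 5236, 6254, 6657, 9524 and 7905 FPKM in glucose and 2425, 3213, 10018, 11671, 12682, 13789.7, 20678 and 23069 FPKM in fructose. WT had 2574, 3165, 3174, 1994, 1658, 1184, 1899.5 and 2437 FPKM in glucose and 2708, 3889, 9271, 7013, 5843, 4134, 5462 and 6296 FPKM in fructose. In both strains the fructose library at 5 min was far above that at 3 min, and from 5 min on every fructose library of a strain was above the glucose library of its time. HOR7 differed between glucose and fructose by -1.24 ± 0.27 (adjusted p = 0.00369) late in tps1, and by -1.37 ± 0.24 (adjusted p = 0.0234) early and -1.56 ± 0.27 (adjusted p = 0.0264) late in WT, where it was the 1 member called in each phase (0.0967% and 0.145% of all genes were lower). With 1 of the 3 late WT pairs left out 0 members were called, and early 0 to 2. At 180 bp HOR7 belongs to the length class in which FPKM scattered most, and the part of length in the difference was not tested.

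Between early and late, 4 members were higher late in tps1 glucose and 0 lower (1.98% and 1.45% of all genes), namely ALD3, GND2, PHM7 and SPI1. In tps1 fructose HOR7 was higher late and MSN4 lower (0.306% and 0.758%). In WT glucose YGP1 was lower late (0.387%), and in WT fructose SPI1 and YGP1 were (0.29%). The strains differed in this change for FMP16, GND2, SPI1 and YGP1 in glucose and SPI1 and YGP1 in fructose, higher late in tps1 relative to WT (3.11% and 1.06% of all genes), beside MSN4. With 1 library left out the first 4 counts were 1 to 5 in tps1 glucose, 0 to 2 in tps1 fructose, 0 to 2 in WT glucose and 1 to 2 in WT fructose.

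Genes upstream of Msn2 and Msn4 and other known targets were counted beside the members. Of 28 genes of the protein kinase A, TOR and related control of the pair, 4 were higher and 9 lower in tps1 than in WT in late glucose, and 2 higher and 6 lower in late fructose, beside 11.0% and 10.6% of all genes in late glucose and 9.64% and 9.8% in late fructose. PDE2, the high-affinity cyclic AMP phosphodiesterase, differed by -2.45 ± 0.30 in late glucose and -2.90 ± 0.30 in late fructose. PSR2, a plasma membrane phosphatase, differed by -2.11 ± 0.35 and -1.91 ± 0.35, and IRA2, a Ras inhibitor, by 1.84 ± 0.17 in late glucose and 0.45 ± 0.17 in late fructose (not called). Of 20 other targets, chaperones and enzymes of trehalose and glycogen metabolism among them, 11 were higher and 0 lower in late glucose, and 8 higher and 1 lower in late fructose, beside the same shares of all genes. GLK1 (glucokinase) differed by 3.70 ± 0.64 and 3.62 ± 0.64, HSP26 (a small heat shock protein) by 3.60 ± 0.52 and 1.29 ± 0.52, and HXK1 (hexokinase I) by 3.46 ± 1.18 and 3.60 ± 1.18, in late glucose and late fructose in that order.

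Members with and without the STRE core in the 300 bases before the start codon differed by value. Bases farther upstream were not searched. In late glucose the median strain difference was 1.82 over the 13 members with 2 or more cores (-0.67 to 3.83), 1.52 over the 18 with 1 core (-1.02 to 2.93) and -0.60 over the 4 with none (-1.51 to 0.36). In early WT glucose the medians against galactose were -0.78, -0.78 and -0.38 in the same order. The 4 without a core in this window are MSN2, MSN4, XBP1 and YGP1, 3 of them regulators, so that the number of cores and the role of the gene cannot be told apart here.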

How the data were processed

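Libraries were made with Illumina's stranded kit after poly-A selection, per the labels' protocols. Per the submitters' processing notes, CASAVA 1.4, TopHat2 and Cuffnorm were used with the sacCer3 build. The authors deposited 1 table of FPKM values, 1 column per library, for 6717 gene IDs (6025 were matched to the R64 annotation). 1 row without an ID was left out (at most 0.000567% of the FPKM sum of a library). Cuffnorm's library scaling, and whether counting used strand, are not given in the sources used here. Depth was estimated from the FPKM steps of low genes, of which 82.1 to 98.0% lay within 0.1 of a whole fragment, too few to recover reads. A single fragment over 1 kb was worth 0.0876 to 0.3496 FPKM. From the authors' deposited FPKM, log2 values were computed here as log2(FPKM + 1).

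Genes whose mean over the libraries was 1 FPKM or more (6203) were fitted with limma 3.58.1 in R 4.3.3, with a prior variance that follows the mean log2 level and Benjamini-Hochberg adjustment over all 6203. Galactose libraries were compared 2 against 2. Comparisons with galactose and of late with early used 10 group means over the 32 libraries. Strains, and sugars, were compared through 16 matched differences each, grouped by phase, and single times by taking the sugars as 2 samples. Serial samples were treated as independent. Alternatives were other pseudocounts, no filter, median-of-ratios scaling, equal FPKM sums, unmatched or galactose-relative strain differences, the galactose library of the same course alone, leaving out each library (with its partner in matched differences), and, chosen after seeing the data, leaving out genes under 300 bp or unmatched. The fits were also run on simulated data with independent libraries and a capped spread, unlike these serial samples. That run checks the code and not the error rate of the calls.

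Every member is accounted for. All library values are given for at most 4 members per role group that were called in 2 or more strain comparisons or had the largest difference from galactose, and for MSN2, MSN4, HSP12 and CTT1. Of the other lists up to 3 called genes with the largest differences are named. The members, lists and tests were chosen with earlier results of these data known.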

Additional observations from a re-analysis of the deposited data

Results flagged for a closer look

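FMP16, which encodes a small mitochondrial protein, had 1 library far from the others of its phase: in early tps1 glucose it reached 64.2 FPKM at 15 min, against 48.4, 49.4 and 50.2 FPKM at the other times. MOH1, a gene of unknown function induced on entry into stationary phase, likewise had 38.4 FPKM at 15 min of tps1 glucose, against 15.6, 15.7 and 17.98 FPKM at the other early times. The libraries of a phase are a time series, 140 groups of 4 were looked at, and chance alone sets off this criterion in about 1 of 20 groups.

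The response from galactose differed between the strains by a direct test, which was not repeated under equal FPKM sums or with 1 library left out. In early glucose 11 members moved higher in tps1 than in WT and 1 (MSN2) lower, in late glucose 24 and 2 (MSN2 and MSN4), in early fructose 0 and 1 (MSN2), and in late fructose 16 and 2 (MSN2 and MSN4). GRE3 and MSC1, called in none of the 4 strain comparisons by phase, were among the 11 and the 24, and SSE2 among the 24. Of the single times, all 6 redox genes, GRE3 among them, were called higher in tps1 at 10 min. The change between early and late also differed between the strains, by a test likewise not repeated. In glucose FMP16, GND2, SPI1 and YGP1 (4) moved higher in tps1 than in WT and MSN4 (1) lower, and in fructose SPI1 and YGP1 (2) moved higher and MSN4 (1) lower (3.11% and 1.55% of all genes in glucose, 1.06% and 0.435% in fructose).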

How the results depend on the processing

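Counts below are of members called, in either direction. The shares of all genes called under the same settings are not given here, so a changed count cannot be read as a result about the members. Of the 184 counts recomputed without leaving out a library, 161 stayed within 1.5 times of the first value and 23 did not. Under equal FPKM sums the counts against galactose were 2 in early tps1 glucose, 4 in late tps1 glucose, 5 in early tps1 fructose, 12 in late tps1 fructose, 7 in late WT glucose and 18 in late WT fructose, the count of tps1 glucose late against early was 1, and the strain counts were 7 in early glucose and 7 at 120 min. Against the galactose library of the same course alone they were 2 in early tps1 glucose, 0 in early tps1 fructose, 1 in early WT glucose, 0 in late WT glucose, and 1 early and 1 late in WT fructose. Without genes under 300 bp or unmatched, they were 2 in early tps1 glucose, 1 in early tps1 fructose, 1 for tps1 fructose late against early, 0 and 0 for WT glucose against fructose (HOR7 being left out) and 4 for the strains in galactose. A pseudocount of 5 left 1 for tps1 fructose late against early, and setting strains relative to galactose left 1 in early fructose. YGP1 turned in early glucose relative to galactose (0.27, adjusted p = 0.749, against -1.78). Of 1170 values of named members under these settings 1072 kept direction and call, 97 lost the call and 1 turned; with 1 library left out 712 kept both and 187 lost the call. The causes were not tested.

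With 1 library left out the strain counts ranged from 6 to 20 in early glucose, 16 to 24 in late glucose, 5 to 13 in early fructose, 13 to 19 in late fructose, and 0 to 0 in galactose. By time they ranged from 2 to 4 at 3 min, 5 to 7 at 5 min, 18 to 21 at 10 min, 16 to 21 at 15 min, 19 to 20 at 30 min, 16 to 20 at 60 min and 11 to 16 at 120 min. Against galactose they ranged from 0 to 3 in early tps1 glucose, 9 to 13 in late tps1 glucose, 0 to 3 in early tps1 fructose, 5 to 6 in late tps1 fructose, 1 to 17 in early WT glucose, 0 to 6 in late WT glucose, 0 to 13 in early WT fructose and 0 to 14 in late WT fructose. Late against early they ranged from 1 to 5 in tps1 glucose, 0 to 2 in tps1 fructose, 0 to 2 in WT glucose and 1 to 2 in WT fructose. Glucose against fructose gave 0 to 1 early and 5 to 9 late in tps1, and 0 to 2 early and 0 to 0 late in WT. The strain and sugar tests were paired by time. With strains not matched by time PHM7 lost its call in late glucose (-1.02, adjusted p = 0.0627). Since each time has 1 library, depth limits low members such as GND2 and PHM7, and 4 members under 300 bp are read less precisely.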
